A study of Oryctolagus cuniculus with 17 samples.

Results

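The set of Notch signalling genes looked for comprised the receptors NOTCH1, NOTCH2 and NOTCH4, the ligands DLL1, DLL4, JAG1 and JAG2, and the transcriptional targets HES1, HEY1 and HEY2. Members were taken from the count table by the human gene name listed for each entry, keeping the entry with the highest total count. Of the 10 genes, 6 had an entry (NOTCH2, DLL4, JAG1, HES1, HEY1 and HEY2), each with 1 entry at a locus that holds no other gene, among 13827 entries in all. The remaining 4 (NOTCH1, NOTCH4, DLL1 and JAG2) were not analysed here. All 6 passed the filter on low counts.

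The samples were right lung homogenates of New Zealand White rabbit pups delivered preterm by C-section. After birth the pups were kept in incubators at 21% oxygen (normoxia, NT) or 95% oxygen (hyperoxia, HT) and fed a milk replacer. Lungs were taken on day 3 (HT3 and NT3), day 5 (HT5 and NT5) or day 7 (HT7 and NT7), and polyadenylated RNA was sequenced. Each group had 3 samples except HT5, which had 2, giving 17 samples in all. Prematurity was shared by every group, so no comparison here has term-born pups. The labels give replicate numbers but do not state that replicates are separate pups, and the p-values measure only the spread between these samples.

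Notch is a system of contact between neighbouring cells. A ligand of the Delta-like or Jagged family on one cell binds a Notch receptor on the next, the receptor is cut by proteases, and its intracellular domain enters the nucleus, binds RBPJ and Mastermind proteins, and switches on repressors of the HES and HEY families. In blood vessels, DLL4 is known as the endothelial ligand that restrains sprouting and supports arterial identity, JAG1 is known to act in endothelium and in the vessel wall as well as in epithelium, and HEY1 and HEY2 are the main vascular targets.

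Library totals ran from 13123731 to 18111086 counts when a locus was entered a single time, and no pair of replicates was a duplicate. Levels are given as CPM, the usual expression of a count relative to its library total, here scaled by the trimmed mean of M-values. They are not divided by transcript length, so they are compared between samples for a gene and not between genes. A gene is said to be called, or to have risen or fallen, when the Benjamini-Hochberg adjusted p of edgeR's quasi-likelihood test over 13142 genes was under 0.01. A differentially expressed gene (DEG) also had a log2 fold change (log2FC) beyond 2 in either direction. The standard error (SE) follows each log2FC. Markers of striated muscle summed to 304 CPM in HT3 replicate 2, 39.2 CPM in HT3 replicate 3 and 278 CPM in HT5 replicate 1, against at most 10.8 CPM in the other samples. The part of this in the results was not tested, and the values without these samples are given where they changed a call.

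By role, the receptor NOTCH2 was not called on any day, and 2 of 3 targets fell on day 7. The 2 ligands were called in opposite directions on day 5 only. Both of these day 5 calls were lost when only the HT5 and NT5 samples were fitted. JAG1 rose on day 5. DLL4 fell on days 5 and 7, to 0.162 of the normoxia level on day 7, the largest change among the 6 members. HEY1 fell to 0.351 and HEY2 to 0.390 of the normoxia level on day 7. HES1 was not called on any day.

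**Figure D1:**
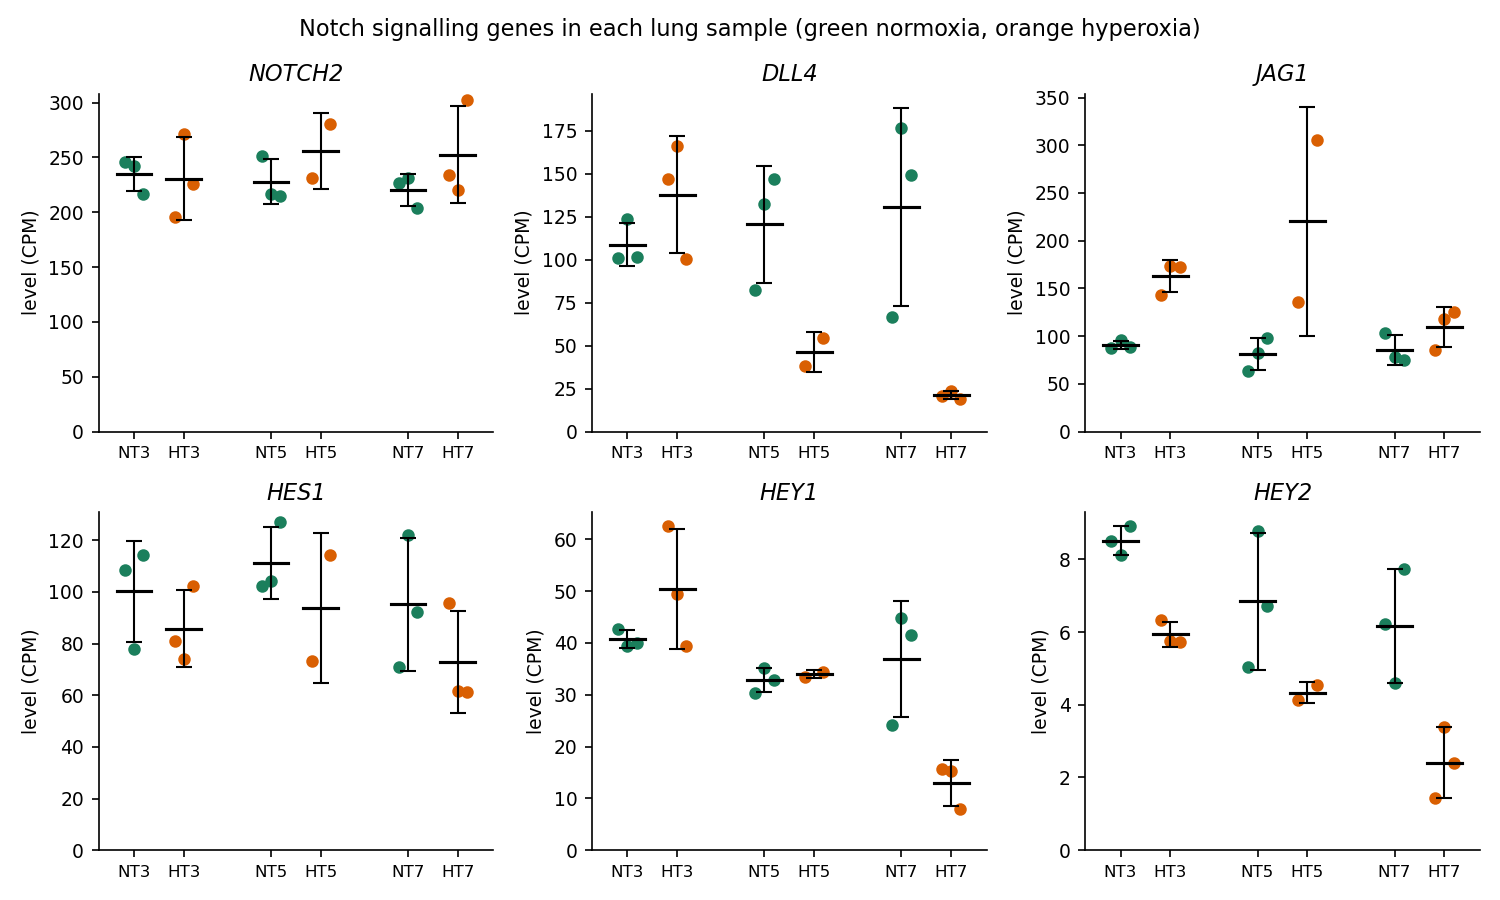
CPM of the 6 Notch genes on linear axes from 0, with a point for each sample (green NT, orange HT), the groups side by side by day, a line at the group mean and bars of 1 SD. The DLL4 samples of HT7 sit between 19.0 and 23.5 CPM and those of NT7 between 66.4 and 177 CPM, while the NOTCH2 samples of both conditions overlap on each day.

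NOTCH2, a receptor expressed in many lung cell types, is listed as ENSOCUG00000016565 on chromosome 13 (44013973 to 44186426, reverse strand, OryCun2.0). Its level was 195, 271 and 225 CPM in HT3, 231 and 280 CPM in HT5, and 234, 221 and 303 CPM in HT7. The NT samples lay between 204 and 252 CPM. NT and HT samples overlapped on all 3 days. The log2FC of hyperoxia over normoxia was -0.03 (SE 0.14, adjusted p = 0.954) on day 3, 0.17 (SE 0.16, adjusted p = 0.440) on day 5 and 0.20 (SE 0.14, adjusted p = 0.267) on day 7. The samples of NOTCH2 varied least of the 6 genes, with a standard deviation of 0.163 in log2 CPM over the 17 samples.

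DLL4 is listed as ENSOCUG00000010756 on chromosome 17 (31143906 to 31151786, reverse strand). On day 3 it stood at 147, 166 and 100 CPM in HT3 and at 101, 123 and 102 CPM in NT3. The groups overlapped, and the difference was not called (log2FC 0.34, SE 0.30, adjusted p = 0.633). On day 5 it was 38.3 and 54.6 CPM in HT5 against 82.2, 133 and 147 CPM in NT5. Both hyperoxia samples lay below every normoxia sample, and DLL4 fell with a log2FC of -1.37 (SE 0.35, adjusted p = 0.00937). This call stood close to the threshold. It was lost without HT5 replicate 1 (-1.14, adjusted p = 0.0695), HT5 replicate 2 (-1.67, adjusted p = 0.0441), NT5 replicate 2 (adjusted p = 0.0285) or NT5 replicate 3 (adjusted p = 0.0325), when only the HT5 and NT5 samples were fitted (adjusted p = 0.0305), and with the replicate block (-1.19, adjusted p = 0.0172).

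On day 7, DLL4 was down to 21.0, 23.5 and 19.0 CPM in HT7, a mean of 21.2 ± 2.26 CPM (SD, n = 3), against 66.4, 177 and 149 CPM in NT7, a mean of 131 ± 57.4 CPM (SD, n = 3). The highest HT7 sample lay well under the lowest NT7 sample. The log2FC was -2.63 (SE 0.32, adjusted p = 2.11e-05), which made DLL4 the DEG among the 6 members. NT7 replicate 1 was the low normoxia sample, and without it the log2FC was -2.94 (adjusted p = 4.70e-06). The adjusted p stayed under 0.01 in 13 of 13 alternatives, the largest being 0.00113.

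JAG1 (ENSOCUG00000002884, chromosome 4, 25560297 to 25595296, forward strand) was called in the other direction on day 5. It was 143, 174 and 173 CPM in HT3 and 87.2, 95.6 and 89.0 CPM in NT3. All HT3 samples lay above all NT3 samples, yet the day 3 difference was not called (log2FC 0.85, SE 0.24, adjusted p = 0.111). With the replicate number as a block, which day 3 samples with the same number warranted, it was not called either. On day 5 the values were 136 and 305 CPM in HT5 and 63.9, 82.0 and 97.8 CPM in NT5. JAG1 rose on that day, with a log2FC of 1.44 (SE 0.27, adjusted p = 0.00144), a 2.71-fold higher level. HT5 replicate 2 carried the higher value, and without it the log2FC was 0.72 and the call was lost (adjusted p = 0.0768), as it was when only the HT5 and NT5 samples were fitted (adjusted p = 0.0373). Without HT5 replicate 1, the sample with the muscle markers, it was 1.91 (adjusted p = 8.06e-05). On day 7, HT7 samples were at 85.7, 118 and 125 CPM and NT7 samples at 104, 78.6 and 74.7 CPM. The groups overlapped and the difference was not called (log2FC 0.36, SE 0.24, adjusted p = 0.245).

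HES1 (ENSOCUG00000009363, chromosome 14, 89961660 to 89964982, forward strand), a repressor that many signals besides Notch can induce, stood between 61.3 and 114 CPM in the 8 HT samples and between 71.0 and 127 CPM in the 9 NT samples. NT and HT samples overlapped on every day. The log2FC was -0.22 (SE 0.24, adjusted p = 0.707) on day 3, -0.25 (SE 0.27, adjusted p = 0.507) on day 5 and -0.39 (SE 0.24, adjusted p = 0.197) on day 7, and the day 5 value changed sign without HT5 replicate 1.

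HEY1 (ENSOCUG00000016568, chromosome 3, 95468448 to 95472020, reverse strand) was 62.5, 49.3 and 39.3 CPM in HT3 against 42.6, 39.5 and 40.0 CPM in NT3, and 33.4 and 34.5 CPM in HT5 against 30.4, 35.2 and 32.9 CPM in NT5. These groups overlapped on both days. The log2FC was 0.31 (SE 0.25, adjusted p = 0.590) on day 3 and 0.05 (SE 0.28, adjusted p = 0.913) on day 5. On day 7 it was 15.6, 15.3 and 7.94 CPM in HT7 and 24.1, 44.9 and 41.6 CPM in NT7. Every HT7 sample lay below every NT7 sample, and HEY1 fell with a log2FC of -1.51 (SE 0.26, adjusted p = 0.000259). On day 5, DLL4 was called lower and HEY1 was not, and whether their day 5 effects differ was not tested.

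HEY2 (ENSOCUG00000029649, chromosome 12, 115196998 to 115208794, forward strand) stood between 1.44 and 8.93 CPM over the 17 samples. It was 6.33, 5.76 and 5.72 CPM in HT3 against 8.51, 8.11 and 8.93 CPM in NT3. On day 5 it was 4.13 and 4.54 CPM in HT5 against 5.03, 8.78 and 6.72 CPM in NT5. All hyperoxia samples lay below all normoxia samples on both days, without a call on day 3 (log2FC -0.52, SE 0.27, adjusted p = 0.387) or day 5 (log2FC -0.66, SE 0.32, adjusted p = 0.125). On day 7 the values were 1.44, 3.39 and 2.41 CPM in HT7 and 6.22, 4.59 and 7.73 CPM in NT7. HEY2 fell with a log2FC of -1.36 (SE 0.29, adjusted p = 0.00142). The call was lost when only the HT7 and NT7 samples were fitted (adjusted p = 0.0227).

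**Figure D2:**
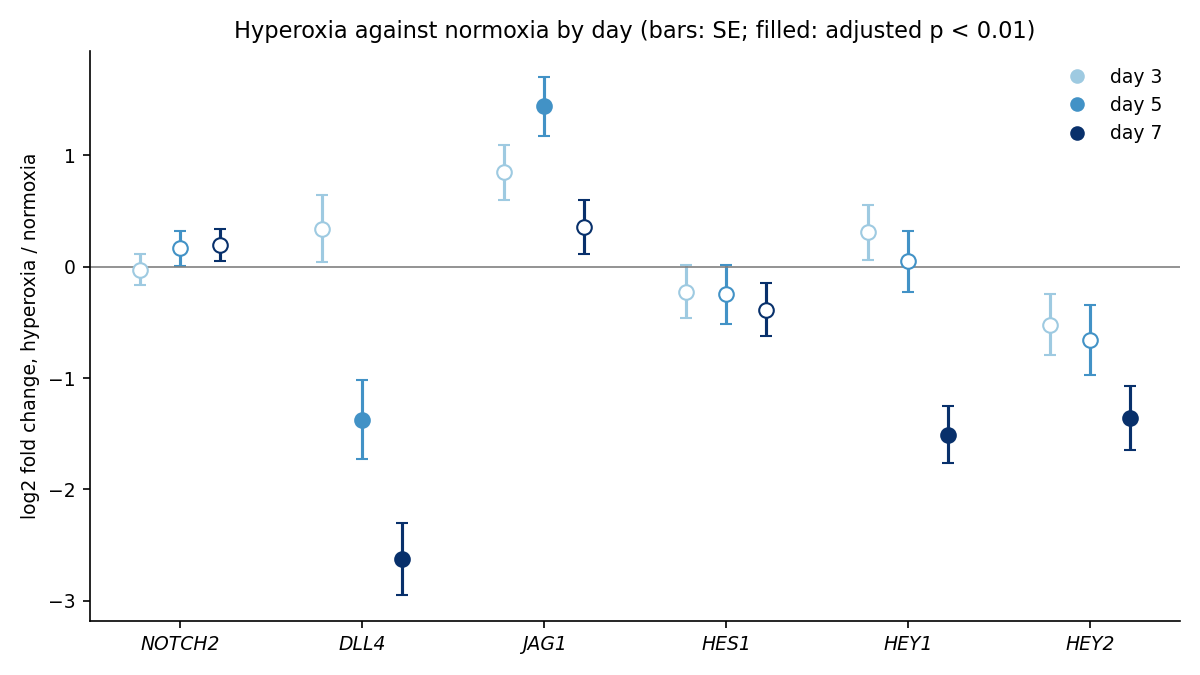
Log2FC of hyperoxia over normoxia for the 6 Notch genes on days 3, 5 and 7, with bars of 1 SE from edgeR's fit and filled symbols for an adjusted p under 0.01. DLL4 goes from 0.34 on day 3 to -1.37 and -2.63, JAG1 peaks at 1.44 on day 5, and NOTCH2 and HES1 stay within 0.40 of 0.

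Read against all genes, the counts were as follows. On day 3, 0 of 6 members were called, where edgeR called 0.205% of all genes tested. On day 5, 2 of 6 were called (JAG1 higher, DLL4 lower), against 16.2% of all genes. That count was 0 without HT5 replicate 2 or when only the HT5 and NT5 samples were fitted, and 1 without HT5 replicate 1, NT5 replicate 2 or NT5 replicate 3 or with the replicate block. On day 7, 3 of 6 were called, all lower, against 33.6% of all genes in either direction and 16.9% lower. DLL4 was 1 DEG of 6 members on that day, against 4.59% of all genes. The median log2FC of the members was 0.14, -0.10 and -0.87 on the 3 days, against 0.00, -0.02 and -0.01 over all genes. Groups did not overlap for 2, 3 and 3 members, against 26.7%, 55.7% and 54.5% of all genes.

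The difference between the hyperoxia effects of days 7 and 3 was tested in the same fit. The effect on DLL4 was lower on day 7 by a log2 difference of -2.97 (SE 0.44, adjusted p = 0.00118), and that on HEY1 by -1.82 (SE 0.35, adjusted p = 0.00402). edgeR called 7.27% of all genes in this test, and 2 of 6 members. DLL4 passed in 19 of 19 alternatives and HEY1 in 12 of 19. With the replicate block the HEY1 value was -1.80 and was not called (adjusted p = 0.0138), and its call was also lost without HT3 replicate 1, any of the NT3 samples, or NT7 replicate 2 or 3, with adjusted p values up to 0.0139. HEY2 (-0.84, adjusted p = 0.147), JAG1 (-0.49, adjusted p = 0.329), HES1 (-0.16, adjusted p = 0.769) and NOTCH2 (0.22, adjusted p = 0.453) were not called.

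The members were also followed within each condition. From NT3 to NT7 edgeR called 0 of 6 members and 0% of all genes, with 824 genes at an unadjusted p under 0.05 and 11 genes called by DESeq2. DLL4 changed by 0.27, HEY1 by -0.14 and HEY2 by -0.46 on the log2 scale. From HT3 to HT7, 3 of 6 members were called, all lower, against 29.4% of all genes in either direction and 15.1% lower. DLL4 fell by 2.70 (SE 0.32, adjusted p = 2.82e-05), HEY1 fell by 1.96 (SE 0.26, adjusted p = 5.81e-05) and HEY2 fell by 1.30 (SE 0.29, adjusted p = 0.00221). The HEY2 call was lost without HT7 replicate 1 or HT7 replicate 3 (adjusted p up to 0.0103), and when only the HT7 and HT3 samples were fitted (-1.31, adjusted p = 0.0212). JAG1 changed by -0.57 without a call (SE 0.24, adjusted p = 0.0674). The 2 comparisons share the HT7, NT7, HT3 or NT3 samples with those above and are no independent evidence.

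Endothelial RNA differed between the same groups. Of 14 pan-endothelial marker genes listed, 10 were tested, and 8 of these fell on day 7, among them the junction protein CDH5 (log2FC -1.96) and the angiopoietin receptor TEK (-2.79), with a list median of -1.41. PECAM1 (-0.05) and VWF (0.29), the carrier of clotting factor VIII, were not called on day 7. On day 5, 4 of the 10 fell (CDH5, TIE1, TEK and ERG, with log2FC from -1.63 to -1.32), VWF rose (1.14, adjusted p = 0.00747), and 3 of 6 arterial and 7 of 8 capillary markers fell, with list medians of -0.74, -1.03 and -2.12. The summed level of the 10 markers was 2642 to 2922 CPM in HT3, 1597 to 1714 CPM in HT5 and 1126 to 1553 CPM in HT7, against 2475 to 3090 CPM over the 9 NT samples. No marker of this list was at 0 in any sample. On day 7, 4 of 6 arterial markers fell, with a median of -1.34, and 8 of 8 capillary markers fell, with a median of -2.55. On day 3, 1 of 10 pan-endothelial markers (TIE1) and 0 of 14 arterial and capillary markers were called. Markers of other cell types were called on day 7 too, when edgeR called 33.6% of all genes. Of 5 alveolar type 1 markers, 3 fell (list median -2.04), with sums of 1652 to 2178 CPM in HT7 and 4777 to 6048 CPM in NT7, and 4 of 8 smooth muscle markers fell (list median -0.51). Of 9 macrophage markers, 1 rose and 1 fell, with 4 higher, 5 lower and a list median of -0.12. Their sums were 1905 to 2458 CPM in HT7 and 1142 to 1368 CPM in NT7. CD68 reached 34655 counts in a sample, against at most 4386 for any other macrophage marker (CSF1R), so the sum leans on CD68. In homogenised lung, fewer cells of a type and less RNA per cell cannot be told apart, and the part of these markers in the change of DLL4, HEY1 and HEY2 was not tested.

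Set beside the summed endothelial markers, a description added after the levels were seen, the DLL4 level, which is not in the sum, equalled 1.28 to 2.09% of it in HT7 and 2.52 to 6.07% in NT7, which did not overlap. In HT5 it was 2.23 and 3.42%, against 3.22 to 5.93% in NT5, which overlapped. HEY1 was 0.535 to 1.36% of the sum in HT7 and 0.914 to 1.54% in NT7, and HEY2 was 0.0929 to 0.301% and 0.158 to 0.280%. Both overlapped on this scale on day 7. In HT5, HEY1 was 1.95 and 2.16%, above the 1.19 to 1.33% of NT5. The day 7 separation of DLL4 depended on the markers summed. DLL4 was 7.45 to 11.2% of the summed arterial markers in HT7 and 13.9 to 33.0% in NT7, and 6.85 to 8.58% of the summed capillary markers in HT7 and 5.34 to 10.04% in NT7. The groups were apart on the arterial scale and overlapped on the capillary scale. HEY1 was 3.58 to 6.22% of the capillary sum in HT7 and 1.94 to 2.55% in NT7, so on that scale its HT7 samples lay above its NT7 samples. HEY2 likewise was 0.574 to 1.09% in HT7 and 0.261 to 0.501% in NT7. The JAG1 CPM divided by the DLL4 CPM was 0.775 to 0.875 in NT3, 0.619 to 0.777 in NT5 and 0.445 to 1.56 in NT7. Under hyperoxia it ran from 0.977 to 1.72 on day 3 and from 4.08 to 6.58 on day 7, and the HT5 samples had 3.54 and 5.59. All HT samples lay above the NT samples of their day. This quotient is not a ratio of molecules, since neither level is divided by length. It only restates the 2 levels. On day 3 neither gene was called, and on day 7 DLL4 fell (-2.63) while JAG1 was not called (0.36).

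**Figure D3:**
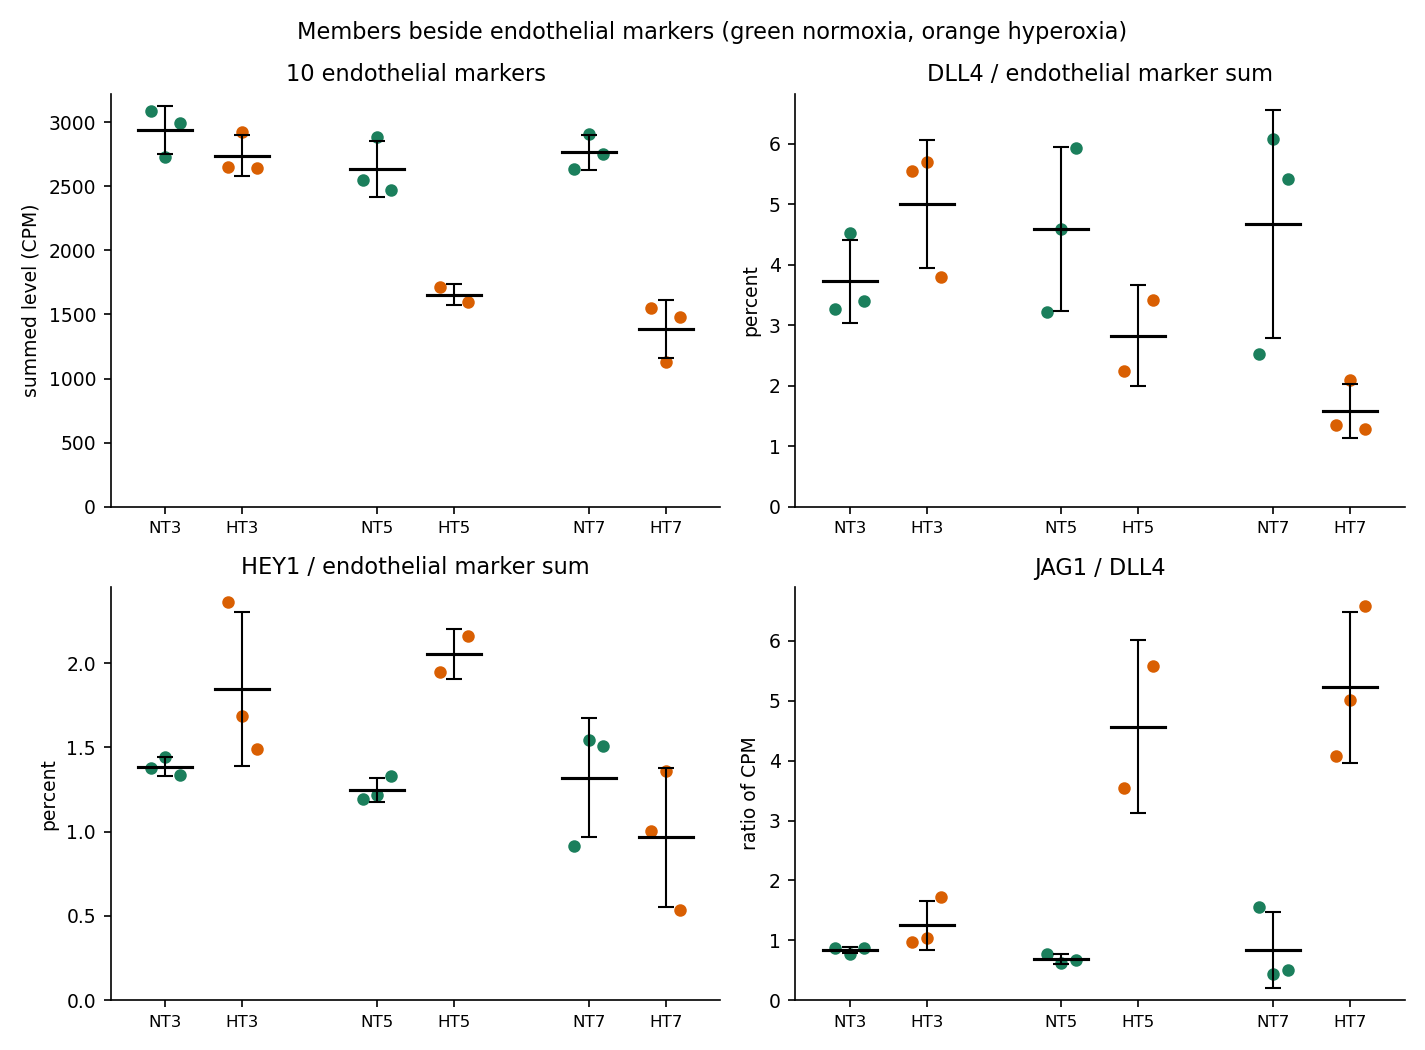
The summed CPM of 10 pan-endothelial markers, the DLL4 and the HEY1 CPM as a percent of that sum, and the JAG1 CPM divided by the DLL4 CPM, with a point for each sample (green NT, orange HT), a line at the group mean and bars of 1 SD. DLL4 lies at 1.28 to 2.09% in HT7 and 2.52 to 6.07% in NT7, HEY1 overlaps between HT7 and NT7, and the JAG1 quotient is 4.08 to 6.58 in HT7 and 0.445 to 1.56 in NT7.

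The rest of the pathway was taken from a list of 45 further genes, of which 37 were in the table and 36 were tested. The ligand DLL3 was not tested, with at most 12 counts in a sample. On day 3, 1 gene was called lower, against 0.205% of all genes called in either direction. On day 5, 4 rose and 6 fell, which is 10 of 36 genes, against 16.2% of all genes. With the replicate block, 5 of 36 were called on day 5. On day 7, 4 rose and 14 fell, which is 18 of 36 genes, against 33.6% of all genes. Of the 10 genes called on day 5, 9 were called in the same direction on day 7. The same share over all genes was not counted, so this is not read as particular to the pathway. The median log2FC of the 36 genes was -0.07, -0.17 and -0.27 on the 3 days. Without HT5 replicate 2, 1 of 36 genes was called on day 5, and 0 were called when only the HT5 and NT5 samples were fitted.

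NOTCH3, the receptor of mural cells, was not called, with a log2FC of 0.17, 0.54 and -0.08 on days 3, 5 and 7. Of the other ligands, DLK1, an atypical ligand that lacks the usual receptor-binding domain, was a DEG on day 7 (-2.09, SE 0.55, adjusted p = 0.00589). Its NT7 samples were at 70.1, 11.7 and 15.8 CPM and its HT7 samples at 7.44, 9.98 and 5.58 CPM. The call rested on the high NT7 replicate 1, without which the log2FC was -0.84 (adjusted p = 0.0697). It was also lost without HT7 replicate 1 (adjusted p = 0.0230) or HT7 replicate 3 (adjusted p = 0.0308), with the replicate block (-1.67, adjusted p = 0.0226) and when only the HT7 and NT7 samples were fitted (adjusted p = 0.0367).

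Fringe enzymes add sugars to the receptors and thereby shift their preference between Delta-like and Jagged ligands. LFNG was the pathway gene called on day 3, and it fell on all 3 days. It was 15.3, 12.7 and 20.7 CPM in HT3 against 43.9, 46.1 and 37.4 CPM in NT3. In HT7 it was 12.1, 9.19 and 12.3 CPM, against 34.9, 28.5 and 31.8 CPM in NT7. No HT sample reached the lowest NT sample of its day on any of the 3 days. The log2FC was -1.39 (SE 0.22, adjusted p = 0.00650) on day 3, -1.42 (adjusted p = 0.000999) on day 5 and -1.50 (adjusted p = 8.13e-05) on day 7. The day 3 call was lost with the replicate block (-1.41, adjusted p = 0.0302), when only the HT3 and NT3 samples were fitted (adjusted p = 0.0176) and in 5 of 6 fits that left out a sample, HT3 replicate 3 being the exception, with adjusted p values up to 0.0471. The day 5 call was lost without HT5 replicate 2 (-1.06, adjusted p = 0.0246). The difference between the LFNG effects of days 7 and 3 was -0.11 (SE 0.30, adjusted p = 0.823).

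Whether the effects on MFNG differ from those on LFNG was not tested. MFNG stood at 123, 152 and 118 CPM in HT3 and 140, 133 and 148 CPM in NT3, which overlapped, and was not called on day 3. On day 7 it was 39.3, 64.8 and 48.3 CPM in HT7 and 139, 144 and 139 CPM in NT7. MFNG fell on day 5 (-0.99, adjusted p = 0.00101) and day 7 (-1.47, SE 0.15, adjusted p = 6.42e-06), and its effect was lower on day 7 than on day 3 by -1.37 (adjusted p = 0.00153). The day 5 call was lost without HT5 replicate 2 (-0.87, adjusted p = 0.0311). As a percent of the summed pan-endothelial markers, MFNG was 2.53 to 5.76% in HT7 and 4.95 to 5.29% in NT7, which overlapped. The glucosyltransferase POGLUT1, which primes the receptors, fell on day 7 (-0.65, adjusted p = 0.00160), a call lost without HT7 replicate 3 (-0.53, adjusted p = 0.0114).

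Of the ligases that help ligands to be taken up, NEURL1 (-1.20, adjusted p = 0.000475) and NEURL1B (-0.97, adjusted p = 0.00211) fell on day 7, and MIB1 (0.23) was not called. The NEURL1B call was lost without HT7 replicate 1, HT7 replicate 3 or NT7 replicate 3 (adjusted p = 0.0108, 0.0149 and 0.0101), and when only the HT7 and NT7 samples were fitted (adjusted p = 0.0318). Among the receptor proteases, ADAM17, a sheddase of many surface proteins, rose on day 5 (0.69, adjusted p = 0.00999) and day 7 (0.64, adjusted p = 0.00498). APH1A, a subunit of gamma-secretase, fell on both days (-0.67 and -0.65, adjusted p = 0.000183 and 1.67e-05). PSEN2 (-0.34), a further subunit of gamma-secretase, and the main Notch sheddase ADAM10 (-0.10) were not called on day 7. ADAM17 kept its day 7 call in 9 of 13 alternatives, losing it without HT7 replicate 3 or any of the NT7 samples (adjusted p up to 0.0261). It kept its day 5 call in 4 of 12, losing it without HT5 replicate 1 (adjusted p = 0.0170), HT5 replicate 2 (adjusted p = 0.118), NT5 replicate 2 or NT5 replicate 3, and with the replicate block (adjusted p = 0.0320).

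The DNA-binding partner RBPJ did not differ by more than 0.17 on the log2 scale on any day and was not called, its samples lying between 73.9 and 93.2 CPM. Of its Mastermind co-activators, MAML1 was not called on any day. MAML2 fell on day 7 (-0.60, adjusted p = 0.00225), and MAML3 fell on day 5 (-1.05, adjusted p = 0.000762) and day 7 (-1.60, SE 0.16, adjusted p = 4.07e-06). MAML3 was 21.3, 16.9 and 13.7 CPM in HT7 against 43.1, 53.9 and 60.7 CPM in NT7. The MAML2 call was lost without HT7 replicate 1 (adjusted p = 0.0125) or NT7 replicate 2 (adjusted p = 0.0157), or when only the HT7 and NT7 samples were fitted (adjusted p = 0.0286), and the day 5 call of MAML3 without HT5 replicate 2 (-1.03, adjusted p = 0.0185) or with the replicate block (-1.08, adjusted p = 0.0109).

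Among inhibitors and turnover factors, NUMB, which promotes loss of the receptor, fell from 192, 198 and 210 CPM in NT7 to 96.6, 95.7 and 97.6 CPM in HT7. The spread within HT7 was small beside the distance between the groups (log2FC -1.05, SE 0.11, adjusted p = 5.19e-06), and NUMB also fell on day 5 (-0.65, adjusted p = 0.00134). The ubiquitin ligase FBXW7, which marks the intracellular domain for degradation, rose on day 5 (0.79, adjusted p = 0.000535) and day 7 (0.42, adjusted p = 0.00678). The day 7 call held in 6 of 13 alternatives. It was lost without any 1 of the HT7 or NT7 samples except HT7 replicate 2 (adjusted p up to 0.0370). It was also lost with the replicate block (adjusted p = 0.0171) and when only the HT7 and NT7 samples were fitted (adjusted p = 0.0297). The Deltex ligases split. DTX2 rose on day 7 (0.89, adjusted p = 0.000258), DTX3 fell on day 5 (-0.91, adjusted p = 0.00213) and day 7 (-1.26, adjusted p = 2.70e-05), and DTX4 fell on day 7 (-1.48, adjusted p = 8.02e-05). DTX3 shares its locus with another annotated gene, and their counts cannot be told apart. ITCH rose on day 5 (0.45, adjusted p = 0.00811), a call that held in 5 of 12 alternatives and was lost without any 1 of the HT5 or NT5 samples (adjusted p from 0.0109 to 0.132). Without HT5 replicate 2, the day 5 calls of NUMB (-0.46, adjusted p = 0.0318), FBXW7 (0.67, adjusted p = 0.0182) and DTX3 (-0.68, adjusted p = 0.0568) were lost as well. With the replicate block, those of NUMB (adjusted p = 0.0126), DTX3 (adjusted p = 0.0129) and ITCH (adjusted p = 0.0424) were lost.

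**Figure D4:**
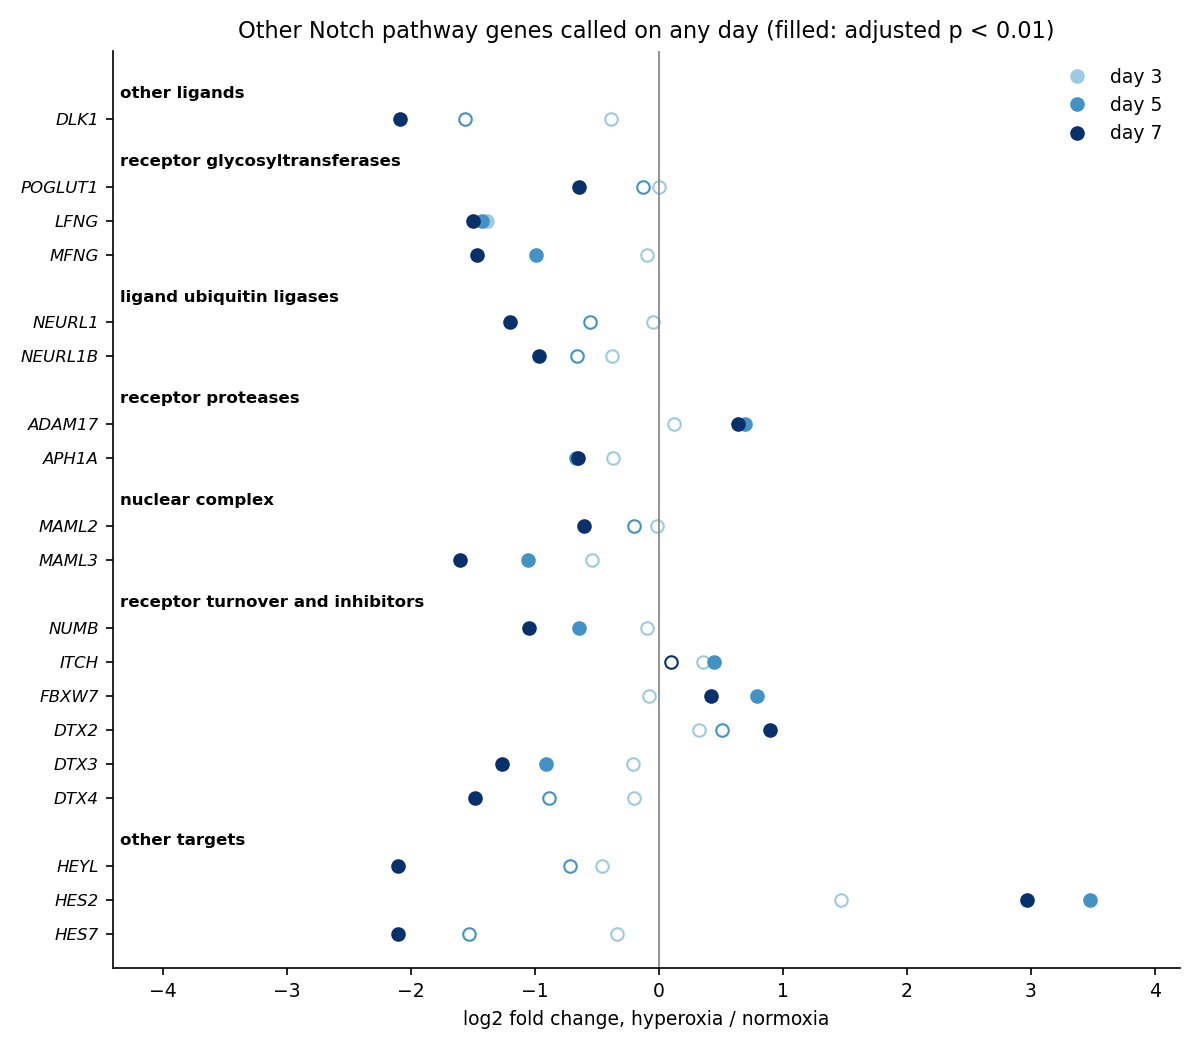
Log2FC of hyperoxia over normoxia on days 3, 5 and 7 for the 19 of 36 other Notch pathway genes called on any day, grouped by role, with filled symbols for an adjusted p under 0.01. HES2 lies at 3.48 and 2.97 on days 5 and 7, and HEYL at -2.11 and LFNG at -1.50 on day 7.

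Of the other targets, HEYL, the HEY relative known from mural cells, fell from 61.0, 77.4 and 88.8 CPM in NT7 to 13.9, 24.9 and 14.0 CPM in HT7. It was a DEG on day 7 (log2FC -2.11, SE 0.22, adjusted p = 7.00e-06) and was not called on day 3 (-0.46, adjusted p = 0.310) or day 5 (-0.72, adjusted p = 0.0345), although HT samples lay below NT samples on all 3 days. HEY1, HEY2 and HEYL thus fell together on day 7, and HES1 did not pass the test. Of 8 pericyte markers, 5 fell and 1 rose on day 7, with summed levels of 368 to 378 CPM in HT7 and 544 to 757 CPM in NT7. HEYL was 3.67 to 6.77% of that sum in HT7 and 10.2 to 14.6% in NT7, and 0.895 to 2.21% of the pan-endothelial sum in HT7 and 2.32 to 3.22% in NT7, neither of which overlapped. HEYL was not set beside the capillary sum, the scale on which HEY1 and HEY2 lay higher in HT7 than in NT7. The part of the pericyte and endothelial markers in the HEYL value was not tested.

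HES2 and HES7 were sparse. HES7 was a DEG on day 7 (-2.11, adjusted p = 0.00134) on 4 to 6 counts in HT7 and 18 or 19 counts in NT7. HES2 went the other way, with 72 to 133 counts in HT7 and 6 to 20 counts in NT7, and was a DEG on day 5 (3.48, SE 0.54, adjusted p = 0.000498) and day 7 (2.97, SE 0.50, adjusted p = 0.000254). All HT samples of HES2 lay above all NT samples on the 3 days, the day 3 difference being 1.47 without a call (adjusted p = 0.155). The day 5 call was lost without HT5 replicate 2 (3.06, adjusted p = 0.0120).

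Beyond MFNG, the day 7 effect was lower than the day 3 effect for 5 further pathway genes: HEYL (-1.64, adjusted p = 0.00316), DTX4 (-1.28, adjusted p = 0.00959), MAML3 (-1.06, adjusted p = 0.00507), DTX3 (-1.06, adjusted p = 0.00580) and NUMB (-0.96, adjusted p = 0.00152). That is 6 of 36 genes lower and 0 higher, against 4.68% and 2.59% of all genes. These 6 calls were not checked under the alternatives, and that of DTX4 stood close to the threshold.

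The genes whose profile lay nearest to a called member were found from the root mean square difference of centred log2 CPM over the 17 samples, as a description. DLL4 lay nearest to EFNB2 (0.281), which encodes the arterial ligand ephrin-B2, then PTPRB (0.356), an endothelial phosphatase, and ST8SIA4 (0.359), beside a standard deviation of 1.08 for DLL4 itself. EFNB2, also among the arterial markers above, fell on day 7 with a log2FC of -1.94 (adjusted p = 3.22e-05). It was picked for its likeness to DLL4 over the same samples, so this fall is no separate evidence. HEY1 lay nearest to RAPGEF4 (0.295), DNAJC6 (0.310) and the cation channel TRPC6 (0.321), with its own standard deviation at 0.729. The nearest genes of HEY2 (0.683) were TMTC2 (0.213), ZNF521 (0.236) and ADCYAP1R1 (0.236). JAG1 (0.562) lay nearest to MICU3 (0.303), MTMR2 (0.305) and MCTP2 (0.306). Among the members themselves, the nearest were NOTCH2 and HES1, the pair that varied least, at 0.393, followed by HEY1 and HEY2 at 0.503, NOTCH2 and JAG1 at 0.507 and DLL4 and HEY1 at 0.547, while DLL4 and JAG1 were farthest apart at 1.26.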

How the data were processed

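Total RNA from right lung homogenates was made into stranded poly(A) libraries and sequenced as paired-end reads on an Illumina NovaSeq. The submitters' processing notes name FastQC, STAR 2.7.10a and OryCun2.0. The counting program and its strand setting are not given in the sources used here, so reads of an overlapping antisense gene cannot be judged. The authors deposited raw read counts per gene of a locus, with no normalization. Genes of 1 locus repeat its counts, and library sizes in the fit include these repeats.

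The 17 samples were grouped by label into HT3, HT5, HT7, NT3, NT5 and NT7. Tests were made in R 4.3.3 with the package edgeR 4.0.16, using filterByExpr (13142 of 13827 entries kept), TMM scaling and quasi-likelihood fits on 6 group means with 11 residual degrees of freedom. An adjusted p under 0.01 was called, and DEGs also needed a log2FC beyond 2, thresholds taken from the methods of the study. Log2FC values carry edgeR's default prior count of 0.125. The code was tested on simulated data.

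The members and all gene lists were chosen with earlier results of these data known. Of the 36 other pathway genes, those called on any day are named, with some uncalled ones (NOTCH3, RBPJ, MIB1, MAML1, ADAM10, PSEN2) added for their role after values were seen. For each called member, the 3 nearest genes with at least 1 log2 CPM are named. Alternatives were DESeq2 1.42.0, RLE scaling, no count filter, 1 entry per locus, a prior count of 2, the thresholds, fits of only the groups compared, the replicate block and leaving out each sample. Those of single pathway genes, and the percentages and quotients of CPM, were added after seeing the data. Of the pathway list, 1 gene is counted but not reported here.

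Deviations from the group means of samples with the same number correlated at 0.166, 0.131 and 0.199 on day 3, 0.264 and 0.141 on day 5, and 0.174, 0.109 and 0.0695 on day 7. All pairs of a day with 3 pairs passed 0.1 on day 3 only. What the numbers stand for is not given in the sources used here.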

Additional observations from a re-analysis of the deposited data

Results flagged for a closer look

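The hyperoxia effect of day 7 differed from that of day 3 for 2 of the 6 Notch genes and 6 of the 36 other pathway genes, by edgeR's test of the difference itself, which called 7.27% of all genes in either direction and 4.68% lower. The log2 difference, day 7 minus day 3, was -2.97 for DLL4 (adjusted p = 0.00118) and -1.82 for HEY1 (adjusted p = 0.00402). The HEY1 call held in 12 of 19 alternatives and was lost with the replicate block (adjusted p = 0.0138). It was -1.37 for MFNG (adjusted p = 0.00153), -1.06 for MAML3 (adjusted p = 0.00507), -0.96 for NUMB (adjusted p = 0.00152), -1.06 for DTX3 (adjusted p = 0.00580), -1.28 for DTX4 (adjusted p = 0.00959) and -1.64 for HEYL (adjusted p = 0.00316). The day 3 effects of these genes lay between -0.54 (MAML3) and 0.34 (DLL4) and none was called, while all 8 fell on day 7. In the same test 6 of 10 pan-endothelial markers were called lower, with a list median of -1.15, and the part of this in the 8 genes was not tested. The calls of the 6 pathway genes in this test were not checked under the alternatives.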

How the results depend on the processing

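Of 240 log2FC values of the members under alternatives other than leaving out a sample, 234 kept their direction and side of the threshold, 6 lost a call and 0 changed sign. Leaving out a sample gave 246 values, of which 222 kept both, 13 lost a call and 11 changed sign, each of these an uncalled value. Members called on day 5 numbered 0 with only the groups compared, 1 with the replicate block, 0 with a log2FC beyond 2, and 0 to 2 without a sample. Those called on day 7 numbered 1 with a log2FC beyond 2 and 3 in each fit without a sample. In the difference between days 7 and 3 they numbered 1 with the replicate block and 1 to 2 without a sample, and from HT3 to HT7 2 to 3 without a sample. Other pathway genes called on day 3 numbered 2 with an adjusted p under 0.05, 2 with DESeq2, 0 with the replicate block, 0 with only the groups compared and 0 to 1 without a sample. On day 5 they numbered 5 with the replicate block, 0 with only the groups compared and 1 to 10 without a sample, and on day 7 they numbered 17 with the replicate block, 14 with only the groups compared and 13 to 19 without a sample. Leaving out a sample changed the sign of uncalled log2FC values within these ranges: NOTCH2 -0.16 to 0.080 on day 3 and -0.013 to 0.26 from HT3 to HT7, HES1 -0.62 to 0.040 on day 5 and -0.41 to 0.058 between days 7 and 3, and HEY1 -0.0034 to 0.11 on day 5. From NT3 to NT7 they were DLL4 -0.012 to 0.58, JAG1 -0.24 to 0.0079, HES1 -0.29 to 0.10 and HEY1 -0.31 to 0.087. The cause of these changes was not tested, and each of these fits also had fewer samples. Among the members, the replicate block ended the calls of DLL4 on day 5 (-1.19, adjusted p = 0.0172) and of HEY1 between days 7 and 3 (-1.80, adjusted p = 0.0138). No paired analysis was possible for the comparisons of days within a condition because a number was taken to mark samples of 1 day. HT5 had 2 samples, so leaving out 1 of them left a lone sample that was assumed to vary like the other groups.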
